A study of Mus musculus with 12 samples.

Results

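The genes described here encode the enzymes and transporters that take glucose to pyruvate and lactate, that govern the entry of pyruvate into the mitochondrion, and that run the pentose phosphate pathway. The set was drawn up as a list of gene symbols by pathway, with earlier results of these data known but with no measured value in its rule, and holds 43 of the 24343 genes in the tables. Gapdh was left out of it because most of its reads are shared with pseudogenes. Of the 43 genes, 41 had an FPKM (fragments scaled to transcript length and to the mapped fragments of the library) of at least 0.5 in at least 3 libraries and were tested, among 11924 genes that met the same filter. The remaining 2 genes, Slc2a3 and Slc16a3, were at or near 0 in every library.

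Bulk total-RNA sequencing was performed on HT22 cells, an immortalized mouse hippocampal line, in 12 libraries forming 4 groups of 3 biological replicates. siControl cells received scrambled siRNA, and siNCOA4 cells received siRNA against Ncoa4, the cargo receptor that delivers ferritin to the lysosome so that its iron can be released. The siControl+DFO and siNCOA4+DFO groups were given, in addition, 100 µM deferoxamine (DFO), an iron chelator, for 24 h. All groups therefore share liposome-mediated siRNA transfection of cells of the same line in serum-containing medium, and no group was left untransfected. The paper reports that Ncoa4 siRNA and DFO together altered cell shape and lowered viability, while neither alone changed viability. The part of this lower viability in the siNCOA4+DFO values was not tested.

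Glycolysis splits glucose into pyruvate in the cytosol, and lactate dehydrogenase turns pyruvate into lactate when it is not taken into mitochondria. The pyruvate dehydrogenase complex commits pyruvate to the citric acid cycle, and 4 kinases, encoded by Pdk1 to Pdk4, switch the complex off by phosphorylation. The pentose phosphate pathway branches off at glucose phosphate, makes NADPH in its oxidative arm, and interconverts sugar phosphates in its non-oxidative arm. The prolyl hydroxylases that mark hypoxia-inducible factors for degradation need iron, and many glycolytic genes are textbook targets of these factors.

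Ncoa4 FPKM was 6.02 to 6.46 in siControl, 0.770 to 0.952 in siNCOA4, 7.52 to 8.70 in siControl+DFO and 0.850 to 1.57 in siNCOA4+DFO libraries, so every library matched its siRNA label. The tables hold no read counts, and the relative depth read from the steps of the low FPKM values differed at most 1.52-fold between libraries. Genes of small RNA classes took 30.9% to 35.3% of the summed FPKM without DFO and 37.7% to 47.5% with DFO. Of 13 neuron markers, 10 were below 0.5 FPKM in every library (Rbfox3, Map2, Snap25, Slc17a7, Grin1, Gria2, Neurod1, Stmn2, Nefl and Prox1). Tubb3 and Syn1 were the markers with a mean of at least 1. Tubb3 FPKM was 7.42 to 8.28 in siControl, 4.56 to 5.9 in siNCOA4, 11.8 to 13.6 in siControl+DFO and 5.01 to 9.15 in siNCOA4+DFO libraries. Camk2a, the remaining marker, was at 0.478 to 0.639 FPKM in siControl and 1.28 to 1.42 in siNCOA4 libraries. With DFO, Camk2a was at 0.0678 to 0.128 FPKM in siControl+DFO and 0.133 to 0.216 in siNCOA4+DFO libraries. Of 5 fibroblast or mesenchymal markers, Col1a1, Col1a2, Pdgfra and Vim had a mean of at least 1, and Lum was below 0.5 everywhere. Their list summed to 2820 to 3230 FPKM in siControl and 2100 to 2250 in siNCOA4 libraries. With DFO it summed to 1800 to 1870 in siControl+DFO and 1560 to 1700 in siNCOA4+DFO libraries. Vim was the largest part of that sum, at 1550 to 1660 FPKM in siControl and 1360 to 1450 in siControl+DFO libraries (limma, adjusted p = 0.131). Between the same groups Col1a1 was 4.10-fold, Col1a2 3.16-fold and Pdgfra 5.16-fold lower with DFO. The 4 astrocyte markers summed to 36.4 to 46.0 FPKM in siControl, 22.5 to 26.7 in siNCOA4, 3.18 to 5.42 in siControl+DFO and 6.95 to 15.1 in siNCOA4+DFO libraries, with Aqp4 below 0.5 everywhere. Slc1a3 made up nearly all of that sum, and Aldh1l1 went the other way, at 0.285 to 0.354, 0.788 to 0.851, 0.535 to 0.839 and 2.40 to 2.68 FPKM in the same order of groups. The 4 microglia and 4 oligodendrocyte markers all stayed below a mean of 1. The part of these shifts in the results that follow was not tested, and in bulk RNA fewer cells of a kind and less RNA per cell cannot be told apart.

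The question of the DFO comparison is how HT22 cells respond to iron restriction when Ncoa4 is intact. Transcripts of glucose uptake and of most of glycolysis rose, those of the oxidative arm of the pentose phosphate pathway fell, and the pyruvate dehydrogenase kinases split. At an adjusted p below 0.05 (limma, adjusted over all genes tested), 21 of 41 members (51.2%) were higher in siControl+DFO than in siControl cells, against 27.7% of all genes tested, and 10 of 41 (24.4%) were lower, against 25.7%. With a fold change above 2 required as well, 8 members (19.5%) were higher, against 11.1% of all genes, and 1 was lower, against 7.76%. The median log2 fold change of the members was 0.28, beside -0.01 for all genes tested. The share of members that fell was thus near the background, and the share that rose was above it.

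The promoters are shown here because members that rose together with DFO differ in whether they hold the letters ACGTG upstream of their start. These letters are a form of the core sequence that hypoxia-inducible factors bind, and GCGTG, another form, was not searched for. In the 250 bases before the RefSeq start sites (GRCm38.p6), ACGTG was present on either strand in at least 1 window of 16 of the 41 members with a window (39.0%). The same letters were found for 18.5% of the 27025 genes in the table and in 16.6% of its 32851 windows. Pdp1 and Slc2a3 had no window. Among members that rose with DFO in siControl cells, 9 of 21 (42.9%) held the letters, namely Slc2a1, Hk2, Pfkfb3, Aldoa, Pgk1, Pgam1, Pkm, Ldha and Slc16a1. Among those that fell with a window, 3 of 9 did (33.3%), and among those tested and not past the threshold 3 of 10 did. Of the 8 members that rose over 2-fold, 5 held no ACGTG, namely Pfkl, Pfkp, Eno2, Pdk1 and Pdk4. The windows of Pfkl, Pfkp, Pdk1 and Pdk4 do hold GCGTG, and how often other genes hold it was not counted. A match is a description of the letters, and neither binding nor base composition was tested. Of the windows, 5 with a match and that of Eno2, which has none, follow, 5′ to 3′ on the strand of the gene and ending at the base before the start site, with ACGTG or its complement CACGT in capitals (CACGTG holds the letters on both strands). They lie at chr4:119108495-119108744 (Slc2a1, plus strand), chr6:82774455-82774704 (Hk2, minus strand), chrX:106186850-106187099 (Pgk1, plus strand), chr7:46845554-46845803 (Ldha, plus strand), chr3:104638414-104638663 (Slc16a1, plus strand) and chr6:124769674-124769923 (Eno2, minus strand).
Slc2a1: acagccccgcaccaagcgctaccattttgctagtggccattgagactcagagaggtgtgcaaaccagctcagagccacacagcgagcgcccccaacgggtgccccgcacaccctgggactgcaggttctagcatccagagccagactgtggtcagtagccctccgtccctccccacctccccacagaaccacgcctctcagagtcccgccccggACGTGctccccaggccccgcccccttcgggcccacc
Hk2: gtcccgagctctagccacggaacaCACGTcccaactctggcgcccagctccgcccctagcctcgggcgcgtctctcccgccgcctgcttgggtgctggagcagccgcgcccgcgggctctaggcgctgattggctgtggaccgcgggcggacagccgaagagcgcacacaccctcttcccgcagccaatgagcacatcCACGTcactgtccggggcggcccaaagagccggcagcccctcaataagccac
Pgk1: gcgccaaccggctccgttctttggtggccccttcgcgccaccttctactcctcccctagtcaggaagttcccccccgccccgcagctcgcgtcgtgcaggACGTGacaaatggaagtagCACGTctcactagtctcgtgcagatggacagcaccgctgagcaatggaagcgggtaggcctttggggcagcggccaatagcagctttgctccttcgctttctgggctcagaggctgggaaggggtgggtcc
Ldha: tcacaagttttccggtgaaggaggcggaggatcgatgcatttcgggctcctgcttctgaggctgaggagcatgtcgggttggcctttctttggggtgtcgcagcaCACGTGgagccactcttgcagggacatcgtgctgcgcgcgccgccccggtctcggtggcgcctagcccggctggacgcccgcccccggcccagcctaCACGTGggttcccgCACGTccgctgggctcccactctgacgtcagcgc
Slc16a1: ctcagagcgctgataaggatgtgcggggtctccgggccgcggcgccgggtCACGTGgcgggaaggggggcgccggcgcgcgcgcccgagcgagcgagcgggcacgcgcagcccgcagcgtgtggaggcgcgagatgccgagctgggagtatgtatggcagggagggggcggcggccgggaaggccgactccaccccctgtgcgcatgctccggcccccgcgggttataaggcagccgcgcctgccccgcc
Eno2: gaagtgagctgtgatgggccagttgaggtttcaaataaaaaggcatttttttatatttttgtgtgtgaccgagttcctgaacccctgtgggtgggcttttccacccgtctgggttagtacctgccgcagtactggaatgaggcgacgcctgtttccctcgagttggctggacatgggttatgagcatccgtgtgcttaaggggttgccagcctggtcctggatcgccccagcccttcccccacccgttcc
The Slc2a1 window holds 1 match, 36 bases before the start, whereas the Hk2, Pgk1 and Slc16a1 windows hold 2 each and the Ldha window holds 5, counted on both strands, and the Eno2 window holds none.

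Slc2a1, the principal glucose transporter of most dividing cells, had FPKM values of 80.1, 69.1 and 67.2 in siControl and 264, 321 and 327 in siControl+DFO libraries. In siNCOA4 cells the values were 67.6, 61.5 and 66.9 without DFO and 245, 247 and 185 with it. The 6 libraries with DFO lay above the 6 without. The log2 fold change with DFO was 2.07 ± 0.12 (SE, 4.21-fold, adjusted p = 6.37e-08) in siControl cells and 1.78 ± 0.12 (3.43-fold, adjusted p = 5.38e-07) in siNCOA4 cells. Slc2a3, which encodes the transporter typical of neurons, was listed at 0 in 8 libraries and between 0.0607 and 0.0857 FPKM in the other 4, so no ratio of the transporters was formed.

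Hexokinase phosphorylates glucose on entry. Hk2, its inducible isoenzyme, had FPKM values of 18.6, 13.2 and 13.9 in siControl and 60.7, 66.6 and 64.0 in siControl+DFO libraries, a log2 fold change of 2.07 ± 0.14 (4.21-fold, adjusted p = 1.6e-07). In siNCOA4 cells Hk2 went from 12.8, 10.1 and 11.4 to 58.3, 55.2 and 45.2, a log2 fold change of 2.20 ± 0.14 (4.59-fold, adjusted p = 2.54e-07). Hk1, the housekeeping isoenzyme, moved far less. Its FPKM was 47.2, 44.2 and 40.1 in siControl, 59.0, 53.6 and 58.0 in siControl+DFO, 37.8, 28.7 and 32.4 in siNCOA4 and 40.0, 40.5 and 42.3 in siNCOA4+DFO libraries. The log2 fold changes of Hk1 with DFO were 0.38 (adjusted p = 0.00653) and 0.32 (adjusted p = 0.0202). The second of these lost the threshold when siNCOA4 replicate 2 (0.22) or 3 (0.31), or siNCOA4+DFO replicate 3 (0.30), was left out, and with quantile scaling (0.26). As a result, Hk1 was the more abundant hexokinase transcript in all 6 libraries without DFO and Hk2 in all 6 libraries with it.

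The committed step is run by phosphofructokinase, whose subunits come from Pfkl, Pfkm and Pfkp. Pfkl, the liver-type subunit, had FPKM values of 36.8, 36.2 and 34.9 in siControl, 91.9, 92.9 and 96.2 in siControl+DFO, 29.3, 23.1 and 26.0 in siNCOA4 and 83.1, 80.7 and 63.8 in siNCOA4+DFO libraries. Pfkp, the platelet-type subunit, had 10.2, 8.85 and 10.1 in siControl, 25.5, 25.5 and 25.0 in siControl+DFO, 11.5, 11.4 and 10.5 in siNCOA4 and 24.7, 24.0 and 23.2 in siNCOA4+DFO libraries. For each of these genes the libraries with and without DFO did not overlap. The log2 fold change with DFO in siControl cells was 1.38 for Pfkl (SE 0.11, adjusted p = 5.77e-07) and 1.38 for Pfkp (SE 0.08, adjusted p = 7.1e-08), and in siNCOA4 cells it was 1.53 for Pfkl and 1.10 for Pfkp. Pfkm, the muscle-type subunit, went the other way. Its FPKM fell from 21.3 to 22.6 in siControl to 16.8 to 17.4 in siControl+DFO libraries, a log2 change of -0.35 ± 0.08 (adjusted p = 0.00205), and from 23.5 to 25.7 in siNCOA4 to 17.1 to 19.4 in siNCOA4+DFO libraries, a log2 change of -0.47 ± 0.08 (adjusted p = 0.000417).

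The bifunctional enzymes encoded by Pfkfb1 to Pfkfb4 set the level of the sugar bisphosphate that activates phosphofructokinase, and Pfkfb3 encodes the form with the strongest kinase activity. All 4 transcripts were low, and their replicates were more spread than those of the abundant glycolytic genes. Pfkfb3 FPKM was 0.974, 0.776 and 1.78 in siControl, 3.42, 3.18 and 2.89 in siControl+DFO, 0.721, 1.38 and 0.986 in siNCOA4 and 1.57, 0.636 and 1.42 in siNCOA4+DFO libraries. The 3 siControl+DFO libraries therefore stood above the other 9. Pfkfb3 rose with DFO in siControl cells by a log2 fold change of 1.43 ± 0.38 (adjusted p = 0.00673), which was 0.96 with a pseudocount of 1, and in siNCOA4 cells its log2 fold change was 0.17 ± 0.38 (adjusted p = 0.751). Pfkfb1 FPKM was 4.51, 4.2 and 4.74 in siControl, 2.71, 4.94 and 3.31 in siControl+DFO, 8.16, 6.33 and 5.68 in siNCOA4 and 8.13, 10.8 and 13.1 in siNCOA4+DFO libraries. In siNCOA4 cells it rose with DFO by 0.65 on the log2 scale ± 0.23 (adjusted p = 0.0368), a call that was lost without siNCOA4 replicate 2 (0.61) or 3 (0.54) and without siNCOA4+DFO replicate 2 (0.63) or 3 (0.49). Pfkfb2 FPKM was 3.29, 2.40 and 2.83 in siControl, 4.07, 3.51 and 2.87 in siControl+DFO, 3.78, 4.27 and 3.16 in siNCOA4 and 3.98, 5.00 and 6.18 in siNCOA4+DFO libraries. Neither Pfkfb2, which shares 24.3% of its 75-base stretches with Gm29427, nor Pfkfb4, at 2.20 to 4.43 FPKM over all libraries, passed the threshold with DFO in either background.

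The other enzymes of upper glycolysis rose more moderately. Gpi1, the isomerase of glucose phosphate, went from 73.5 to 78.7 FPKM in siControl to 118 to 134 in siControl+DFO libraries, a log2 fold change of 0.74 ± 0.08. Tpi1, which interconverts the triose phosphates, went from 151 to 155 to 263 to 292 FPKM, a rise in log2 of 0.86 ± 0.07. Aldoa, the main aldolase, had FPKM values of 294, 297 and 300 in siControl, 407, 386 and 379 in siControl+DFO, 220, 195 and 220 in siNCOA4 and 287, 299 and 302 in siNCOA4+DFO libraries. Its log2 fold change with DFO was 0.39 ± 0.07 in siControl and 0.49 ± 0.07 in siNCOA4 cells. Aldoc, the brain aldolase, was at 0.516, 0.308 and 0.325 FPKM in siControl, 0.487, 0.207 and 0.329 in siControl+DFO, 0.194, 0.402 and 0.732 in siNCOA4 and 0.457, 0.537 and 0.557 in siNCOA4+DFO libraries, which overlapped, and did not pass the threshold in any of the comparisons.

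**Figure D1:**
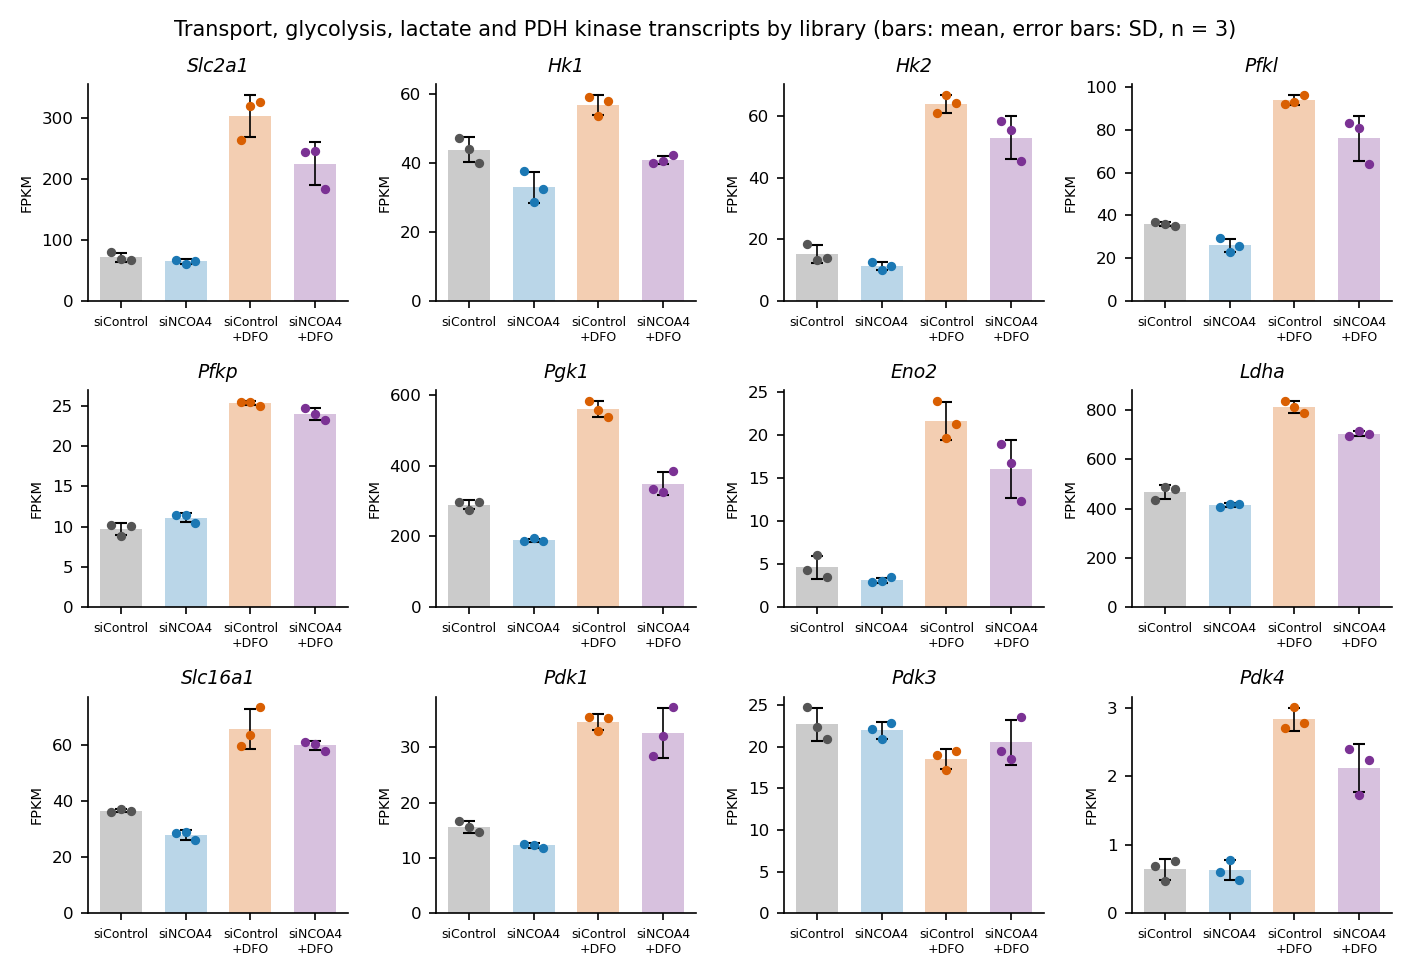
FPKM of 12 transcripts of glucose transport, glycolysis, lactate handling and pyruvate dehydrogenase kinases on linear axes starting at 0; points are the 3 libraries of each group, bars the mean and error bars the SD. Slc2a1, Hk2, Pfkl, Pfkp, Pgk1, Eno2, Ldha, Slc16a1, Pdk1 and Pdk4 have all 6 libraries with DFO above all 6 without, while Hk1 and Pdk3 overlap. The share of all genes that separate in this way was not computed.

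In lower glycolysis all 5 members rose with DFO in siControl cells. Pgk1, phosphoglycerate kinase, which makes the pathway's first ATP, went from 276 to 298 FPKM to 537 to 583, a rise in log2 of 0.95 ± 0.08 (adjusted p = 1.22e-06). Pgam1, phosphoglycerate mutase, went from 112 to 121 to 155 to 175 FPKM, a rise in log2 of 0.46 ± 0.07. Pkm, pyruvate kinase, the most abundant transcript of the set, went from 695 to 714 to 812 to 863 FPKM, a rise in log2 of 0.25 ± 0.08 (adjusted p = 0.0199). The Pkm call was lost with quantile scaling (0.13) and without siControl+DFO replicate 2 (0.23).

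Eno1 and Eno2 encode the ubiquitous and the neuron-typical enolase. Eno2 FPKM was 4.30, 6.12 and 3.48 in siControl, 24.0, 19.7 and 21.3 in siControl+DFO, 2.97, 3.01 and 3.50 in siNCOA4 and 19.0, 16.8 and 12.4 in siNCOA4+DFO libraries. It had the largest log2 fold change of the set with DFO, 2.24 ± 0.20 (4.71-fold, adjusted p = 1.97e-06) in siControl cells and 2.29 ± 0.20 (4.89-fold, adjusted p = 3.4e-06) in siNCOA4 cells. Eno1 stayed the far more abundant transcript, with 382, 397 and 409 FPKM in siControl, 478, 502 and 451 in siControl+DFO, 332, 335 and 353 in siNCOA4 and 373, 401 and 363 in siNCOA4+DFO libraries. Its log2 fold change with DFO was 0.27 ± 0.08 (adjusted p = 0.00992) in siControl cells and 0.16 ± 0.08 (adjusted p = 0.117) in siNCOA4 cells. The Eno1 and Pgk1 values are uncertain, because 65.4% of the 75-base stretches of Eno1 also occur in other genes, chiefly Eno1b, and 67.5% of those of Pgk1 in others, chiefly Pgk1-rs7. Eno1b itself was at 47.0 to 52.3 FPKM in siControl and 57.8 to 65.2 in siControl+DFO libraries. For Pgam1 40.6% of stretches are shared and for Pkm 19.6%, while 28 of the 43 genes share none.

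Ldha and Slc16a1, genes of lactate handling, rose as well. Ldha, the lactate dehydrogenase subunit typical of glycolytic tissue, had FPKM values of 434, 487 and 480 in siControl, 836, 814 and 786 in siControl+DFO, 406, 417 and 419 in siNCOA4 and 695, 714 and 703 in siNCOA4+DFO libraries. The log2 fold change with DFO was 0.80 ± 0.08 (1.74-fold, adjusted p = 3.44e-06) in siControl and 0.77 ± 0.08 (1.70-fold, adjusted p = 9.86e-06) in siNCOA4 cells. Ldhb, the heart-type subunit, had 27.2, 29.8 and 32.4 FPKM in siControl, 35.6, 29.8 and 35.6 in siControl+DFO, 33.0, 32.2 and 35.1 in siNCOA4 and 38.1, 43.8 and 29.0 in siNCOA4+DFO libraries, which overlapped. Slc16a1, a monocarboxylate transporter that carries lactate across the membrane, had 36.2, 37.3 and 36.5 FPKM in siControl, 59.8, 63.6 and 73.7 in siControl+DFO, 28.7, 29.1 and 26.1 in siNCOA4 and 61.3, 60.5 and 58.1 in siNCOA4+DFO libraries. With DFO it rose by a log2 fold change of 0.83 ± 0.08 (1.78-fold, adjusted p = 4e-06) in siControl and 1.10 ± 0.08 (2.14-fold, adjusted p = 9.61e-07) in siNCOA4 cells. Slc16a3, the lactate exporter induced by hypoxia in many cell types, was listed at 0 in 6 libraries and reached at most 0.248 FPKM, so the relation of the transporters was not computed.

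**Figure D2:**
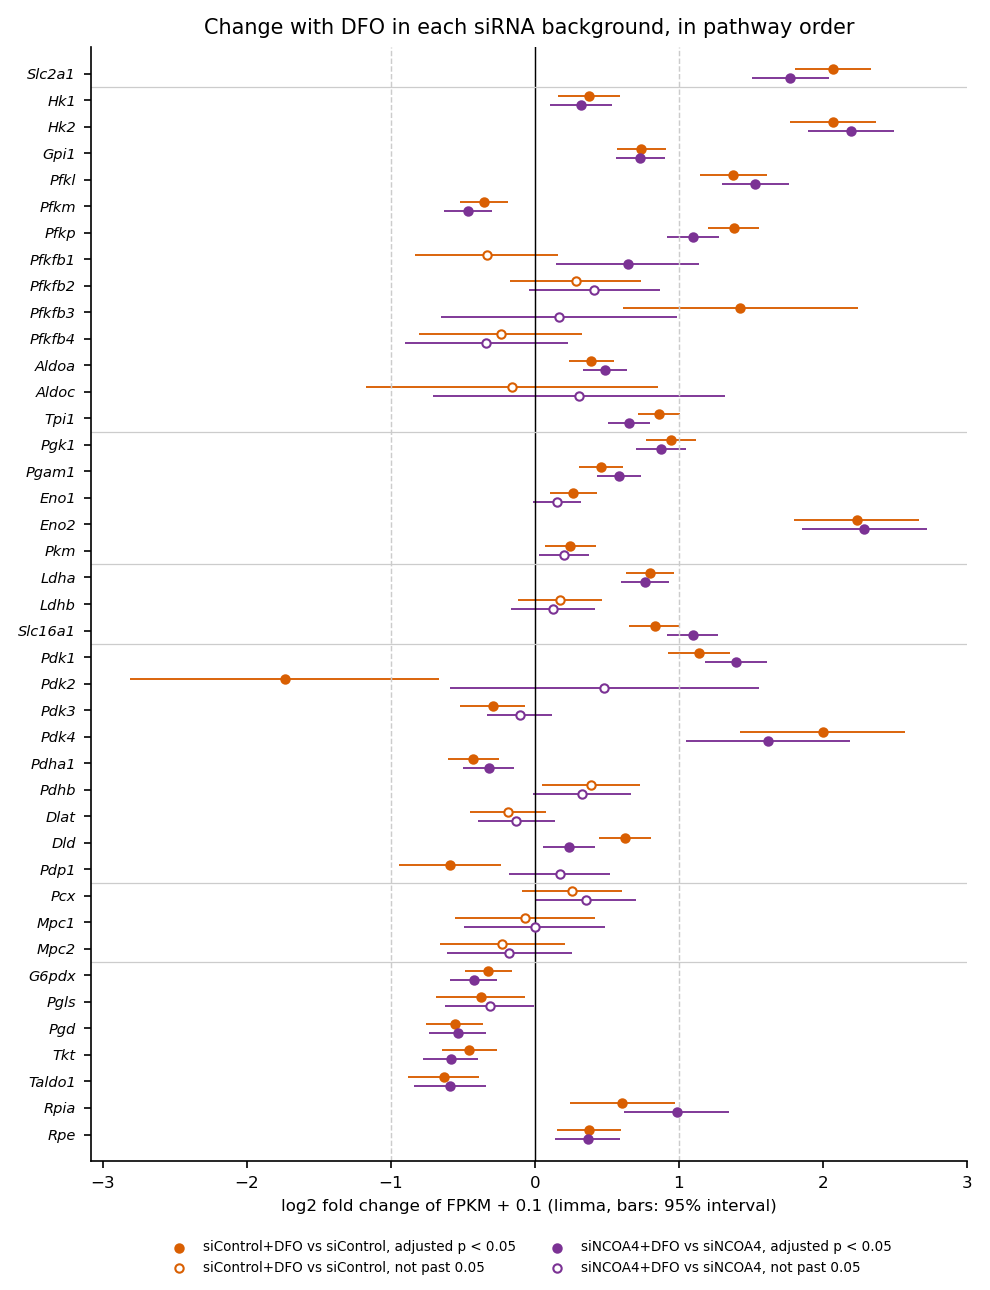
Log2 fold change of FPKM + 0.1 with DFO for the 41 tested genes in pathway order, in siControl cells (orange) and siNCOA4 cells (purple), with 95% intervals from limma; filled points have an adjusted p below 0.05 and dashed lines mark a 2-fold change. Slc2a1, Hk2, Eno2 and Pdk4 lie near 2 in siControl cells, and G6pdx, Pgd, Tkt and Taldo1 lie below 0 in both backgrounds.

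The regulators of pyruvate dehydrogenase moved in opposite directions in siControl cells. Pdk1, a kinase known as a hypoxia-responsive gene, had FPKM values of 16.7, 15.6 and 14.6 in siControl, 35.5, 32.9 and 35.3 in siControl+DFO, 12.6, 12.4 and 11.8 in siNCOA4 and 28.4, 32.1 and 37.3 in siNCOA4+DFO libraries. It rose by a log2 fold change of 1.14 ± 0.10 (2.21-fold, adjusted p = 1.49e-06) in siControl and 1.40 ± 0.10 (2.63-fold, adjusted p = 6.94e-07) in siNCOA4 cells. Pdk4, a kinase best known from fasting, was low but followed the same pattern, with 0.692, 0.472 and 0.760 FPKM in siControl, 2.70, 3.01 and 2.77 in siControl+DFO, 0.605, 0.783 and 0.490 in siNCOA4 and 2.40, 1.73 and 2.24 in siNCOA4+DFO libraries. Its log2 fold change was 2.00 ± 0.26 (adjusted p = 4.55e-05) in siControl and 1.62 ± 0.26 (adjusted p = 0.000362) in siNCOA4 cells. With a pseudocount of 1 these were 1.23 and 0.94, the second below a 2-fold change.

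Pdk2, a broadly expressed kinase, fell instead. Its FPKM was 1.85, 1.47 and 1.58 in siControl, 0.728, 0.124 and 0.656 in siControl+DFO, 0.472, 0.489 and 0.219 in siNCOA4 and 0.417, 0.643 and 0.666 in siNCOA4+DFO libraries. The 3 siControl libraries stood above the other 9. Its log2 change with DFO in siControl cells was -1.74 ± 0.49 (adjusted p = 0.0104), and -0.83 with a pseudocount of 1. In siNCOA4 cells, where Pdk2 started lower, it was 0.48 ± 0.49 (adjusted p = 0.459). Pdk3, the most abundant of the 4 kinases without DFO, was at 20.9 to 24.8 FPKM in siControl and 17.2 to 19.5 in siControl+DFO libraries, a log2 change of -0.29 ± 0.10 (adjusted p = 0.0324). That call was lost without siControl replicate 1 (-0.23) or 2 (-0.30) and without siControl+DFO replicate 1 (-0.31) or 2 (-0.24), and with scaling to protein-coding genes (-0.30). With DFO, Pdk1 rather than Pdk3 had the highest FPKM of the kinases in all 6 libraries.

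Among the subunits of the complex, Pdha1, the catalytic alpha subunit, fell with DFO by a log2 change of -0.43 ± 0.08 (adjusted p = 0.000787) in siControl and -0.32 ± 0.08 (adjusted p = 0.00715) in siNCOA4 cells. Dld, the shared dehydrogenase subunit, rose from 60.6 to 69.1 FPKM to 96.7 to 105, a log2 fold change of 0.63 ± 0.08, in siControl cells and by 0.24 ± 0.08 (adjusted p = 0.0342) in siNCOA4 cells. The latter call was lost without siNCOA4 replicate 1 (0.18) or 3 (0.24) and without siNCOA4+DFO replicate 1 (0.22) or 3 (0.20), and when only the groups compared were fitted (adjusted p = 0.0653). Dlat, the acetyltransferase subunit, at 12.7 to 18.5 FPKM over all libraries, did not pass the threshold. For Pdhb, the catalytic beta subunit, the log2 fold change was 0.39 ± 0.16 (adjusted p = 0.0511). Pdp1, the phosphatase that reactivates the complex, went from 5.53 to 6.47 FPKM to 3.30 to 4.73 in siControl cells, a log2 change of -0.59 ± 0.16 (adjusted p = 0.00851), whereas in siNCOA4 cells it was 0.17 ± 0.16 (adjusted p = 0.416). The mitochondrial pyruvate carrier genes Mpc1 (11 to 18.3 FPKM over all libraries) and Mpc2 (20.3 to 40.0) and the pyruvate carboxylase gene Pcx (10.1 to 22.5) did not pass the threshold with DFO in either background.

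In the pentose phosphate pathway, all 7 members passed the threshold in siControl cells, 5 lower and 2 higher. The 3 enzymes of the oxidative arm fell. G6pdx, the rate-limiting dehydrogenase, had FPKM values of 43.0, 45.0 and 46.1 in siControl, 36.1, 37.7 and 33.5 in siControl+DFO, 28.0, 29.5 and 27.6 in siNCOA4 and 22.8, 20.5 and 20.3 in siNCOA4+DFO libraries. Its log2 change with DFO was -0.32 ± 0.07 (adjusted p = 0.00309) in siControl and -0.42 ± 0.07 (adjusted p = 0.000688) in siNCOA4 cells. Pgd, the second dehydrogenase, went from 57.8 to 60.6 FPKM to 39.2 to 42.5, a log2 change of -0.55 ± 0.09. Pgls, the lactonase between them, was at 23.9 to 40.1 FPKM in siControl and 22.9 to 24.6 in siControl+DFO libraries, which overlapped, and changed by -0.38 ± 0.14 (adjusted p = 0.0424). The Pgls call is weak, since it was lost in each fit that left out siControl replicate 2 (-0.38) or 3 (-0.19) or any siControl+DFO replicate (-0.40 to -0.35), and also when any 1 siNCOA4 replicate or siNCOA4+DFO replicate 2, which enter the shared spread, was left out. In the non-oxidative arm the transferases Tkt and Taldo1 fell, by log2 changes of -0.45 ± 0.09 and -0.63 ± 0.11, whereas the ribose phosphate isomerase Rpia and the epimerase Rpe rose, by 0.61 ± 0.17 (adjusted p = 0.00855) and 0.38 ± 0.10 (adjusted p = 0.00795). The Rpe call was lost with quantile scaling (0.26). Taldo1 was at 79.2 to 108 FPKM in siControl and 61 to 63.4 in siControl+DFO libraries, and Rpe at 16.1 to 18.5 and 19.4 to 24. In siNCOA4 cells G6pdx, Pgd, Tkt and Taldo1 again fell and Rpia (0.99 ± 0.17) and Rpe (0.37 ± 0.10, lost without siNCOA4 replicate 1 at 0.31) rose, and Pgls had a log2 change of -0.31 ± 0.14 (adjusted p = 0.0967).

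Pairs of isoenzymes were compared as ratios of FPKM within each library, which do not depend on how libraries are scaled to each other. In all 14 such comparisons were made, none of which could pass 0.05 at this number of libraries. The ratio of Hk2 to Hk1 was 0.299 to 0.394 in siControl and 0.337 to 0.353 in siNCOA4 libraries, and 1.03 to 1.24 in siControl+DFO and 1.07 to 1.46 in siNCOA4+DFO libraries. The ratio of Eno1 to Eno2 was 64.9 to 118 in siControl and 19.9 to 25.4 in siControl+DFO libraries, and 101 to 112 in siNCOA4 and 19.7 to 29.2 in siNCOA4+DFO libraries. The ratio of Ldha to Ldhb went from 14.8 to 16.3 to 22.1 to 27.4 in siControl and from 11.9 to 12.9 to 16.3 to 24.2 in siNCOA4 cells. For each of these 3 ratios the groups with and without DFO did not overlap, and the exact two-sided permutation p was 0.1 in both backgrounds, the smallest that 3 against 3 libraries can give.

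The ratio of Pfkp to Pfkl differed between backgrounds before DFO, at 0.244 to 0.288 in siControl and 0.392 to 0.494 in siNCOA4 libraries. With DFO it was 0.260 to 0.278 in siControl cells, a difference in mean log2 ratio of 0.002 (exact permutation p = 0.9), and 0.297 to 0.363 in siNCOA4 cells, a difference of -0.43 (exact permutation p = 0.1). The ratio of Pfkfb3 to Pfkfb2 went from 0.296 to 0.630 to 0.839 to 1.01 in siControl cells (exact permutation p = 0.1) and from 0.191 to 0.323 to 0.127 to 0.394 in siNCOA4 cells (exact permutation p = 0.7). The ratio of Pdk1 to Pdk2 was 9.0 to 10.6 in siControl, 48.8 to 266 in siControl+DFO, 25.4 to 53.7 in siNCOA4 and 49.9 to 68.0 in siNCOA4+DFO libraries, with an exact permutation p of 0.1 for DFO in siControl and 0.1 in siNCOA4 cells. Because Pdk2 and Aldoc are close to 0, their ratios are loose, and that of Aldoa to Aldoc ranged from 301 to 1860 over all libraries (exact permutation p = 0.3 in siControl and 0.7 in siNCOA4 cells).

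**Figure D3:**
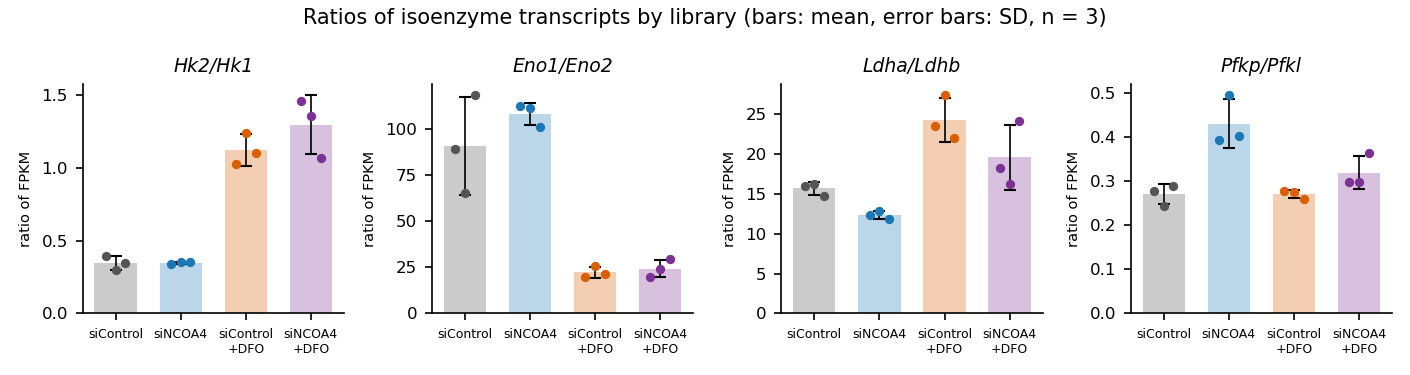
Ratios of isoenzyme FPKM within each library for Hk2/Hk1, Eno1/Eno2, Ldha/Ldhb and Pfkp/Pfkl, on linear axes from 0; points are libraries, bars means and error bars SD (n = 3). The Hk2/Hk1 ratio lies at 0.299 to 0.394 without DFO and above 1 with it, and Pfkp/Pfkl is highest in the siNCOA4 libraries.

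The response to DFO in siNCOA4 cells, which answers how the pathway responds to iron restriction when Ncoa4 is depleted, was measured in 6 libraries that the siControl comparison did not use. At an adjusted p below 0.05, 19 members (46.3%) were higher in siNCOA4+DFO than in siNCOA4 cells, against 23.1% of all genes tested, and 6 (14.6%) were lower, against 19.6%. With a fold change above 2, 8 members were higher, against 7.59%, namely Slc2a1, Hk2, Pfkl, Pfkp, Eno2, Slc16a1, Pdk1 and Pdk4. None was lower by that rule in limma, against 3.83% of all genes. At an unadjusted p below 0.05 alone, 7 were lower, and the share of all genes at that unadjusted p was not computed. Of the 8 genes over 2-fold higher, 7 were among the 8 that rose over 2-fold in siControl cells, Pfkfb3 and Slc16a1 being the exceptions. The log2 fold changes of the 41 genes in the 2 backgrounds had a Pearson r of 0.833 across genes (0.747 over all genes tested), 36 had the same sign (87.8%, against 82.3% of all genes), and the 24 that passed the threshold in both all had the same sign. Genes are not independent replicates, and no test was made of this r.

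The difference between the DFO responses of the 2 backgrounds was tested as an interaction. In limma, 0 of 41 members passed an adjusted p of 0.05, against 2.1% of all genes tested. An unadjusted p below 0.05 was found for 18.2% of all genes tested and for 7 members, a share near that background. Of the 7, 4 (9.76% of members) had a positive interaction and 3 (7.32%) a negative one. These 7 were Dld (interaction -0.39, adjusted p = 0.101), Pdp1 (0.76, adjusted p = 0.102), Pdk2 (2.22, adjusted p = 0.116), Pfkfb1 (0.98, adjusted p = 0.129), Pfkp (-0.28, adjusted p = 0.227), Pfkfb3 (-1.26, adjusted p = 0.233) and Slc16a1 (0.27, adjusted p = 0.247), where a value is the log2 change with DFO in siNCOA4 cells minus that in siControl cells. Differences of Hk2 (0.12, 95% interval -0.30 to 0.54), Ldha (-0.04, -0.27 to 0.20) and Pgk1 (-0.07, -0.31 to 0.18) were bounded by these intervals. For Slc2a1 the difference was -0.30, with an interval of -0.67 to 0.08.

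The effect of Ncoa4 siRNA at normal iron was smaller and ran downward. At an adjusted p below 0.05, 14 members (34.1%) were lower in siNCOA4 than in siControl cells, against 7.21% of all genes tested. None was higher by that rule in limma, against 4.52%. At an unadjusted p below 0.05, 7 were higher, and the share of all genes at that unadjusted p was not computed. With an adjusted p below 0.05 and a fold change above 2, Pdhb and Pdk2 were lower, against 0.973% of all genes. None was higher by this rule, against 0.805%. Besides these, the lower members were Rpia, G6pdx, Pgk1, Aldoa, Pfkl, Hk1, Slc16a1, Pkm, Tkt, Tpi1, Pgam1 and Pdk1. The split depends on the scaling of the libraries. Where libraries were scaled without small RNA genes 5 members were higher and 11 lower, and where they were scaled to protein-coding genes other than the members, an alternative chosen after the data were seen, 3 were higher and 11 lower. These scalings moved the median log2 fold change of all genes by 0.10 and 0.07, and the calls of Hk1, Tkt and Pdk1 were lost under each of them. With libraries left out, Hk1 was lost without siControl replicate 1 (-0.36) or 2 (-0.41) and siNCOA4 replicate 2 (-0.32) or 3 (-0.41), Tkt without siControl replicate 2 (-0.30) and siNCOA4 replicate 1 (-0.36) or 2 (-0.38), Pfkl without siNCOA4 replicate 2 (-0.38), and Pdk1 when any 1 of the 6 libraries compared was left out (-0.39 to -0.30).

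Pdhb was the member that was over 2-fold lower with the siRNA in both iron conditions. Its FPKM was 41.9, 49.5 and 54.1 in siControl and 16.8, 19.3 and 27.4 in siNCOA4 libraries, and 68.2, 61.9 and 60.0 in siControl+DFO and 27.9, 23.6 and 26.7 in siNCOA4+DFO libraries. The 6 libraries with Ncoa4 siRNA lay below the 6 without, in both iron conditions. The log2 change was -1.22 ± 0.16 (2.32-fold lower, adjusted p = 0.000428) without DFO and -1.28 ± 0.16 (2.43-fold lower, adjusted p = 0.00045) with DFO, and it ranged from -1.42 to -1.07 and from -1.33 to -1.14 over all alternatives and omitted libraries. Of the 75-base stretches of Pdhb 19.9% also occur in Gm6123, so part of its reads may not be assigned uniquely. No other subunit of the complex passed the threshold without DFO. Pdha1 was at 93.2 to 110 FPKM in siControl and 114 to 122 in siNCOA4 libraries (log2 fold change 0.22, adjusted p = 0.107), Dlat at 15.8 to 18.5 and 16 to 17.2 (-0.05, adjusted p = 0.85) and Dld at 60.6 to 69.1 and 71.2 to 83.3 (0.25, adjusted p = 0.0741).

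Pdk2, with the values given above, had a log2 change of -1.86 ± 0.49 (adjusted p = 0.0302) with Ncoa4 siRNA, and its call was lost when any of the 6 libraries compared was left out (adjusted p up to 0.106). Among genes of glycolysis, Pgk1 was at 276 to 298 FPKM in siControl and 186 to 195 in siNCOA4 libraries, a log2 change of -0.62 ± 0.08 (1.53-fold lower, adjusted p = 0.000464). Aldoa changed by -0.49 ± 0.07 (1.41-fold lower, adjusted p = 0.00103), Pkm by -0.38 ± 0.08 and Tpi1 by -0.36 ± 0.07. For Pgk1, Aldoa, Pkm and Tpi1 all 3 siNCOA4 libraries lay below all 3 siControl libraries. Slc2a1 and Ldha, which rose strongly with DFO, had log2 changes of -0.14 ± 0.12 (adjusted p = 0.515) and -0.17 ± 0.08 (adjusted p = 0.181). In the pentose phosphate pathway G6pdx changed by -0.65 ± 0.07 (1.57-fold lower, adjusted p = 0.000197), Tkt by -0.38 ± 0.09 (adjusted p = 0.0168) and Rpia by -0.83 ± 0.17 (1.78-fold lower, adjusted p = 0.00754). Rpia was at 8.64, 10.4 and 10.8 FPKM in siControl and 7.38, 4.45 and 5.14 in siNCOA4 libraries, which did not overlap, and its call was lost when only the groups compared were fitted (adjusted p = 0.0579), as was that of Hk1 (adjusted p = 0.0789). Leaving out siNCOA4 replicate 2 reduced the number of lower members from 14 to 9.

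**Figure D4:**
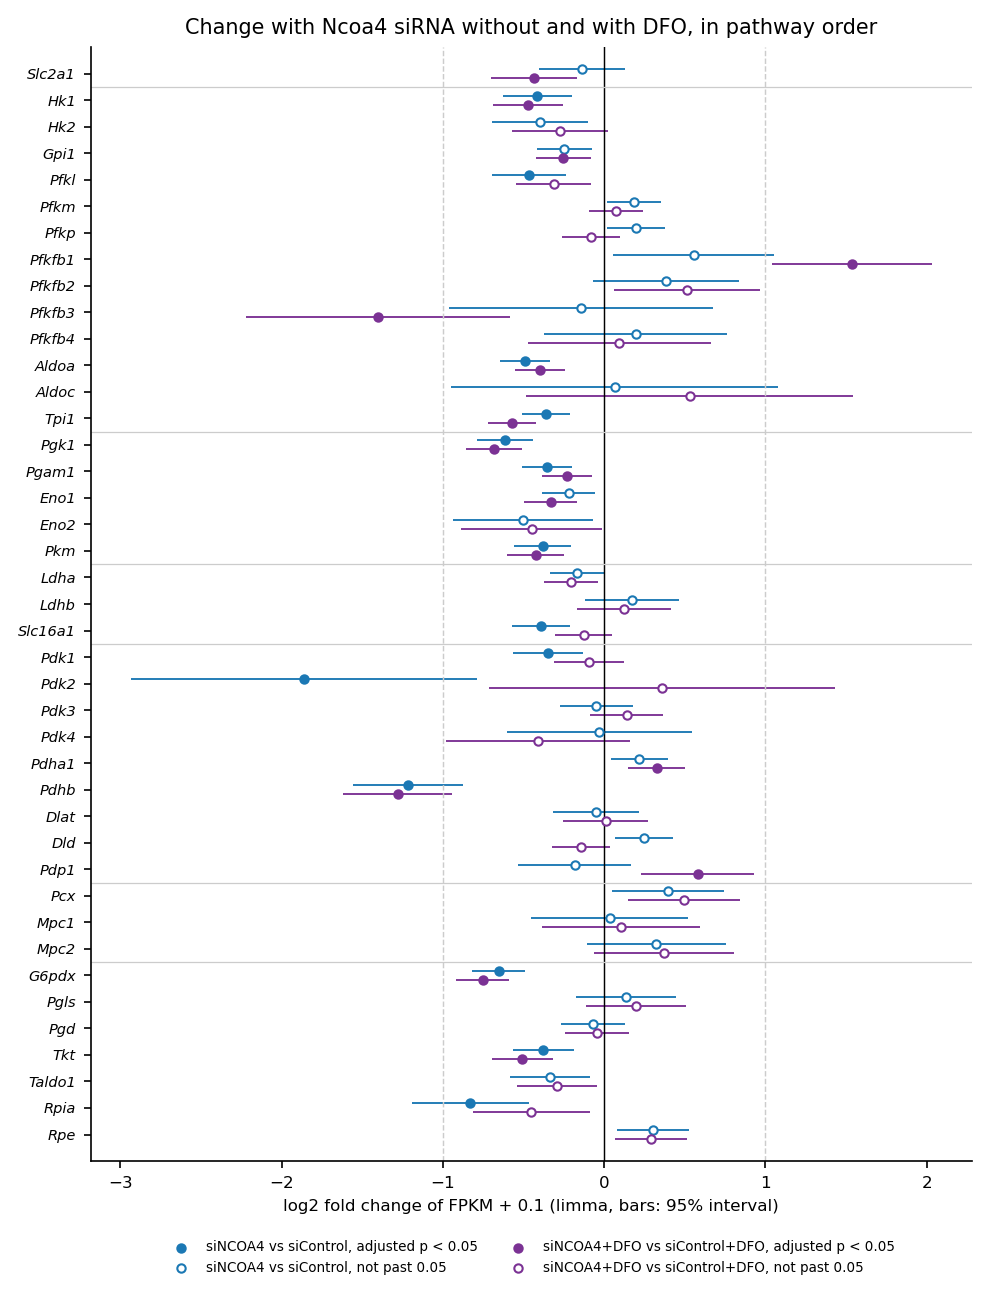
Log2 fold change of FPKM + 0.1 with Ncoa4 siRNA for the 41 tested genes in pathway order, without DFO (blue) and with DFO (purple), with 95% intervals from limma; filled points have an adjusted p below 0.05 and dashed lines mark a 2-fold change. Pdhb lies beyond a 2-fold decrease in both conditions, at -1.22 and -1.28, and Pgk1 and G6pdx lie between -0.62 and -0.75.

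With DFO present, the effect of Ncoa4 siRNA on these genes was measured in the other 6 libraries. At an adjusted p below 0.05, 13 members (31.7%) were lower in siNCOA4+DFO than in siControl+DFO cells, against 10.2% of all genes tested, and 3 (7.32%) were higher, against 6.22%. With a fold change above 2, Pdhb and Pfkfb3 were lower, against 1.01% of all genes, and Pfkfb1 was higher, against 1.07%. Scaling without small RNA genes gave 5 higher and 9 lower, scaling to protein-coding genes other than the members gave 5 higher and 8 lower, and quantile scaling gave 4 higher and 8 lower. The first of these moved the median of all genes by 0.12 in log2 and the second by 0.14.

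Pfkfb1 and Pfkfb3 moved in opposite directions. Pfkfb1, whose values are given above, was 2.90-fold higher (log2 fold change 1.54 ± 0.23, adjusted p = 0.00126), with the 3 siNCOA4+DFO libraries above the 3 siControl+DFO libraries. Pfkfb3 was 2.64-fold lower (log2 change -1.40 ± 0.38, adjusted p = 0.025), likewise without overlap, and its call was lost when any 1 siControl+DFO replicate was left out (-1.46 to -1.35) and without siNCOA4+DFO replicate 2 (-1.03, adjusted p up to 0.0815). In glycolysis Pgk1 was lower by 1.61-fold (-0.68 ± 0.08, adjusted p = 0.000377), Tpi1 by 1.48-fold (-0.57 ± 0.07, adjusted p = 0.000409), Hk1 by 1.39-fold, Pkm by 1.34-fold and Aldoa by 1.32-fold. Slc2a1 (-0.44, adjusted p = 0.0311), Eno1 (-0.33, adjusted p = 0.0117), Gpi1 (-0.25, adjusted p = 0.0452) and Pgam1 (-0.23, adjusted p = 0.044) were also lower, but all 4 lost the threshold with quantile scaling and with the small RNA and protein-coding scalings. Slc2a1 was also lost without siControl+DFO replicate 2 (-0.39) or 3 (-0.38) and siNCOA4+DFO replicate 3 (-0.30), and Eno1 without siControl+DFO replicate 2 (-0.29), while Gpi1 and Pgam1 each lost the threshold in most fits with a library left out (-0.29 to -0.17). Aldoa was lost with quantile scaling (-0.18) and Hk1 with scaling to protein-coding genes (-0.33). Hk2 (-0.28, adjusted p = 0.188), Ldha (-0.21, adjusted p = 0.0867) and Eno2 (-0.45, adjusted p = 0.146) did not pass. Pdp1 (0.58, adjusted p = 0.0299) and Pdha1 (0.33, adjusted p = 0.0178) were higher, and the Pdp1 call was lost with quantile scaling (0.47) and when only the groups compared were fitted (adjusted p = 0.093), as were those of Slc2a1, Gpi1 and Pgam1. Leaving out siControl+DFO replicate 2 reduced the number of members past the threshold from 16 to 9, with Pdp1 (0.46) and Pdha1 (0.32) among those lost. Both were lost as well without siControl+DFO replicate 3 or siNCOA4+DFO replicate 3, and Pdp1 without siNCOA4+DFO replicate 2.

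For several genes the 4 groups could be ordered without overlap. Pgk1, Tpi1, Hk2, Pfkl, Gpi1, Pgam1 and Ldha had the same order, with siNCOA4 lowest, then siControl, then siNCOA4+DFO, and siControl+DFO highest. The share of all genes whose groups separate in this way was not computed. For Tpi1 the groups were at 116 to 123, 151 to 155, 175 to 195 and 263 to 292 FPKM, and for Pgk1 at 186 to 195, 276 to 298, 325 to 386 and 537 to 583 FPKM. Pkm had siNCOA4 at 508 to 580, siNCOA4+DFO at 618 to 635, siControl at 695 to 714 and siControl+DFO at 812 to 863 FPKM. G6pdx, lowered by each treatment, had siNCOA4+DFO lowest at 20.3 to 22.8, then siNCOA4 at 27.6 to 29.5, siControl+DFO at 33.5 to 37.7 and siControl highest at 43.0 to 46.1 FPKM. Tkt was at 46.1 to 55.0 FPKM in siControl and 24.5 to 26.6 in siNCOA4+DFO libraries, and the groups with a single treatment overlapped between them, at 37.3 to 38.4 and 33.1 to 39.8.

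**Figure D5:**
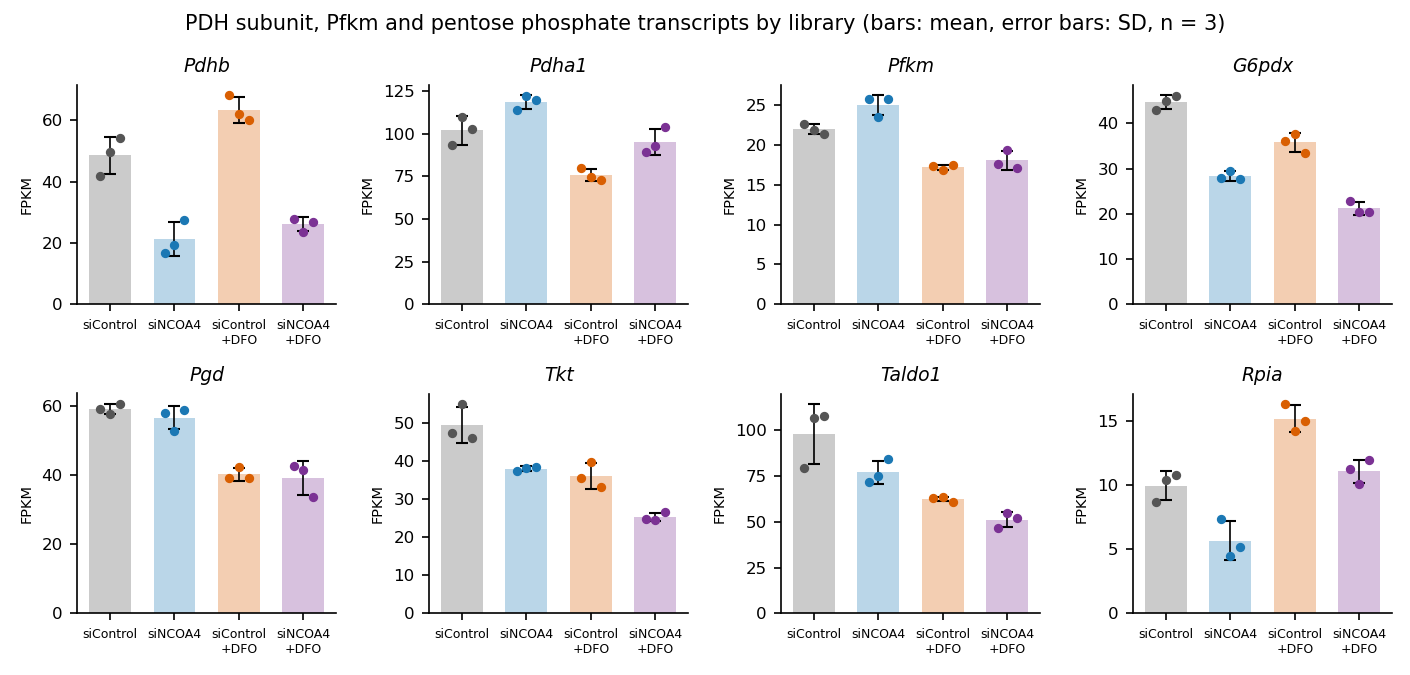
FPKM of 2 pyruvate dehydrogenase subunits, Pfkm and 5 pentose phosphate genes on linear axes from 0; points are the 3 libraries of each group, bars the mean and error bars the SD. Pdhb separates by siRNA, at 16.8 to 27.9 FPKM with Ncoa4 siRNA and 41.9 to 68.2 without, whereas Pgd separates by DFO and G6pdx steps down over siControl, siControl+DFO, siNCOA4 and siNCOA4+DFO.

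The siNCOA4 effects with and without DFO share no library. Across the 41 genes their log2 fold changes had a Pearson r of 0.521 (0.224 over all genes tested) and 35 had the same sign (85.4%, against 62.2% of all genes). Of the members, 9 passed the threshold in both conditions, all with the same sign, while 5 passed without DFO alone and 7 with DFO alone. No p was computed for these descriptions, and 0 of 41 members passed the interaction test, which is also the test of this difference.

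Cells with both treatments were compared with siControl cells, a comparison that shares its control libraries with those above. Under the rule of a 2-fold change with an adjusted p under 0.05, 8 members were higher, against 9.24% of all genes tested, and G6pdx and Pdk2 were lower, against 5.93%. The higher members were Slc2a1, Hk2, Pfkl, Pfkp, Pfkfb1, Eno2, Pdk1 and Pdk4, the last at 0.93, below a 2-fold change, with a pseudocount of 1. G6pdx was 1.08 lower on the log2 scale (-1.08 ± 0.07, adjusted p = 3.65e-07) and Tkt 0.96 lower (-0.96 ± 0.09). Pdk2 had a log2 change of -1.38 ± 0.49 (adjusted p = 0.035), and its call was lost when any of the 6 libraries compared was left out. Scaling without small RNA genes left 8 higher and 1 lower, and scaling to protein-coding genes left 8 higher and none lower, with G6pdx then at -0.95 and Pdk2 at -1.26 (adjusted p = 0.0527).

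Of 44 further genes of these pathways that are not in the set, 24 were tested. With DFO in siControl cells 8 were higher at an adjusted p below 0.05 (33.3%, against 27.7% of all genes tested) and 5 lower (20.8%, against 25.7%), both near the background. Slc16a6, a monocarboxylate transporter family gene, went from 0.407, 0.130 and 0.487 FPKM to 2.00, 1.83 and 2.01 (log2 fold change 2.32 ± 0.44), and Shpk, which phosphorylates sedoheptulose, from 0.496, 1.19 and 0.954 to 5.03, 4.08 and 3.58 (2.20 ± 0.35). Pgm2, a phosphoglucomutase family gene, rose by 1.23 ± 0.07 and Bsg, the chaperone of the monocarboxylate transporters, by 1.08 ± 0.10. H6pd, the glucose phosphate dehydrogenase of the endoplasmic reticulum, fell from 13.5, 10.9 and 12 FPKM to 4.82, 4.89 and 4.89 (-1.30 ± 0.15), and Eno3, the muscle enolase, by -1.07 ± 0.16. The others past the threshold were Adpgk, Me2, Pck2 and Prps1, which were higher, and Bpgm, Pdp2 and Pdpr, which were lower. In siNCOA4 cells 7 were higher (29.2%, against 23.1%) and 4 lower (16.7%, against 19.6%) with DFO, with Slc16a6 and Shpk (each 1.81) past a 2-fold rise and Eno3 (-1.65) and Bpgm (-1.04), the bisphosphoglycerate mutase, past a 2-fold fall. With Ncoa4 siRNA, 1 was higher (Bpgm, 0.53; 4.17%, against 4.52%) and 3 lower (Pdp2, H6pd and Prps2; 12.5%, against 7.21%) without DFO, and 3 were lower (Pgm2, Bsg and Prps2; 12.5%, against 10.2%) with DFO, none of them beyond 2-fold.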

How the data were processed

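RNA from HT22 cells was sequenced as 75-base pairs after a stranded total-RNA library preparation that starts from small amounts. The submitters' processing notes name Trimmomatic 0.33, FastQC, HISAT2 2.1.0, featureCounts and edgeR with the mm10 build; the tool that computed FPKM is not given in the sources used here. The authors deposited one FPKM table per library, with 24347 gene entries each, of which 4 were left out because another entry had the same name. FPKM is scaled to length and mapped reads, so a rise in the reads of abundant RNA classes can lower all other genes. The share of summed FPKM taken by small RNA genes is not their share of reads, which is unknown.

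The members and lists were chosen with earlier results of these data known; no measured value enters the rule for membership. FPKM was tested as log2(FPKM + 0.1) with limma 3.58.1 (R 4.3.3; trended variance, 12 libraries, means of 4 groups, 8 residual degrees of freedom), on genes that reached 0.5 FPKM in 3 or more libraries, with Benjamini-Hochberg adjustment within each comparison. A fold change is on that scale and understates changes of low genes. A gene passed at an adjusted p below 0.05, with a fold change above 2 where stated. The limma fit was tested on simulated data first. Isoenzyme ratios were tested by exact permutation. Values in every library are given for members past the fold rule in any comparison and for isoenzyme pairs, and other members by range.

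The count depth is unknown. Relative depth was read from values of 0.005 to 0.3 FPKM, over 342 to 413 genes, where 92.1% to 96.8% of ratios to siControl replicate 1 lay within 0.03 log2 of a ratio of whole numbers up to 6; it was 1 to 1.25 in siControl, 1.26 to 1.41 in siNCOA4, 1.06 to 1.25 in siControl+DFO and 0.928 to 1.2 in siNCOA4+DFO libraries. Shared sequence was counted as 75-base stretches of GENCODE transcripts found in another gene. Replicates are samples the labels name as biological replicates.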

Additional observations from a re-analysis of the deposited data

How the results depend on the processing

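No member past an adjusted p of 0.05 changed sign under any alternative (pseudocounts of 0.01 and 1, filters, scalings, moderation, only the groups compared, each library left out). The number of members past the fold rule for siNCOA4 against siControl was 1 instead of 2 with a pseudocount of 1, no filter on low values, FPKM of at least 2 in 3 libraries and quantile scaling, and 1 to 2 with each library left out. Without the fold threshold the counts were 14 for siNCOA4 and 31 for siControl+DFO against siControl. For siNCOA4+DFO they were 25 against siNCOA4, 16 against siControl+DFO and 25 against siControl. For the last of these the share of all genes was not computed. The difference in log2 ratio of Pfkp to Pfkl with DFO in siControl cells, 0.002, was -0.053 with a pseudocount of 1 and -0.067 to 0.052 with a library left out. With a library left out, that of Aldoa to Aldoc in siNCOA4 cells was -0.161 to 0.587, and that of Pfkfb3 to Pfkfb2 -0.622 to 0.128. The cause was not tested.

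The replicate numbers did not pair the libraries: over 18 pairs with the same number the residuals had r of -0.127 to 0.116, with 2 over 0.1, and 3 of 12 libraries correlated best with their own number. With the replicate block 13, 32, 23, 13 and 25 members passed an adjusted p of 0.05 in the siNCOA4, siControl+DFO, siNCOA4+DFO against siNCOA4, siNCOA4+DFO against siControl+DFO and siNCOA4+DFO against siControl comparisons. The block ended the calls of Pdk1 with siNCOA4 (adjusted p = 0.0725), of Pfkfb1 (0.0512) and Dld (0.0552) with DFO in siNCOA4 cells, and of Gpi1 (0.0632), Pgam1 (0.0728) and Pdp1 (0.0506) for siNCOA4+DFO against siControl+DFO. Low transcripts such as Pdk2, Pdk4, Aldoc and the Pfkfb genes rest on few reads, and their fold changes shrink with a larger pseudocount.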
